A study of Mus musculus with 18 samples.

Results

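Snai1, Twist1, Zeb2, Vim and Fn1 were followed through single cells of the gastrulating mouse embryo. They were chosen by name as 3 transcription factor genes of the epithelial-to-mesenchymal transition (EMT) with vimentin and fibronectin, and are 5 of the 22997 nuclear genes in the count files. Each had a row in all 18 libraries. All embryos were wild-type C57BL/6, with whole embryo given as the tissue. At embryonic day 6.75 (E6.75), 6 libraries held hand-picked cells of embryos that had lost their extraembryonic part and were dissociated one at a time, processed by CEL-Seq2. At E7.5, 12 libraries held flow-sorted cells of embryos cut beneath the chorion, which keeps the extraembryonic mesoderm, processed by mCEL-Seq2, a miniaturised form. E7.5 embryos of a litter or of a pair of litters were pooled. Stage, way of collecting and protocol changed together and cannot be told apart. Nothing in the labels ties a library to separate embryos. P-values for stage therefore measure the spread between libraries. Those for comparisons of cells within libraries measure how the within-library difference varies between libraries. Both may be partly technical.

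During gastrulation, epiblast cells at the primitive streak lose their epithelial junctions and move out as mesoderm or endoderm. Snai1 encodes a zinc finger repressor that binds E-box motifs, among them those of the E-cadherin gene Cdh1, and mouse embryos without it fail to complete this transition. Twist1 encodes a basic helix-loop-helix factor of head and paraxial mesenchyme, and Zeb2 a zinc finger and homeodomain repressor. Vim encodes the intermediate filament protein of mesenchymal cells, and Fn1 the matrix glycoprotein fibronectin, on which mesoderm cells migrate. T (brachyury) marks the streak and its early descendants, Mesp1 early mesoderm, and Foxa2 definitive endoderm, axial mesoderm and visceral endoderm.

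In the GENCODE annotation of GRCm38, Snai1 (ENSMUSG00000042821.7) lies on chromosome 2 at 167538195 to 167542814 on the plus strand and has 3 exons. Twist1 (ENSMUSG00000035799.6) lies on chromosome 12 at 33957671 to 33959829 on the plus strand and has 2 exons. Zeb2 (ENSMUSG00000026872.17) spans 133764 bases of chromosome 2 at 44983632 to 45117395 on the minus strand. Vim (ENSMUSG00000026728.9) lies on chromosome 2 at 13573927 to 13582826 on the plus strand, with up to 9 exons. Fn1 (ENSMUSG00000026193.15) lies on chromosome 1 at 71585520 to 71653200 on the minus strand, with up to 46 exons. Zeb2 overlaps the antisense gene Zeb2os and Fn1 the antisense gene Apol7d. Use of strand in counting was not given in the sources used here, so reads of these pairs cannot be told apart.

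The promoters of Snai1, Twist1 and Vim are shown because the results below turn on these 3 genes. They are RefSeq windows of GRCm38.p6 from 250 bases before to 50 after the start site, 5′ to 3′ on the gene's strand. In Snai1, capitals mark the E-box CACCTG, the kind of motif that Snai1 binds and which reads CAGGTG on the other strand. In Twist1 and Vim they mark TATAAA.
Snai1 (chr2:167537945-167538244, plus strand): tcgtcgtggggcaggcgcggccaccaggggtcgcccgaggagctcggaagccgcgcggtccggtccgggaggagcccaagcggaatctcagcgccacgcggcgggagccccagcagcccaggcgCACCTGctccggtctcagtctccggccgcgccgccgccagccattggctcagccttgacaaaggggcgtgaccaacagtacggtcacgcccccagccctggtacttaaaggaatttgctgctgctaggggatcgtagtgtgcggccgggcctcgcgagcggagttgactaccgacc
Twist1 (chr12:33957421-33957720, plus strand): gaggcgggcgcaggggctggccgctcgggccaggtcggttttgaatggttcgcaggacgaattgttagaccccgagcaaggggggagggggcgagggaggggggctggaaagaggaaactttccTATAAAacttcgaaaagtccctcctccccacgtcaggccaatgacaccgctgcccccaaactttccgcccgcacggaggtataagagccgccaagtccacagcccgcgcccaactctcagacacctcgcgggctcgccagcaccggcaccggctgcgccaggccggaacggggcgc
Vim (chr2:13574061-13574360, plus strand): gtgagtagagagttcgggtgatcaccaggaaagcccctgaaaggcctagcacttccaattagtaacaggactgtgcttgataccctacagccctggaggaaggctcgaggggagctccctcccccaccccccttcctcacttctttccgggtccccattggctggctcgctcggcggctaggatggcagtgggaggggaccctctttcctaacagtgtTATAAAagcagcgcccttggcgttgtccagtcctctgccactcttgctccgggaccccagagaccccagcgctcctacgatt

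The Snai1 window held 1 CACCTG, starting at −126 from the start site. CAGGTG on either strand was in 20.2% of 32851 promoter windows of the same length. TATAAA started at −126 in Twist1 and at −32 in Vim, and stood on either strand in 13.6% of windows. Neither the Twist1 nor the Vim window held the general E-box CANNTG, which includes CAGGTG and was in 72.3% of windows. The T-box motif AGGTGTGA, searched on both strands and present in 1.28% of windows, was in none of the windows of Snai1, Twist1, Zeb2 or Vim. Zeb2 had 4 windows, none with any of these motifs, and Fn1 had none in the table. A match describes letters in the window only.

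Cells were kept when they held at least 2000 nuclear transcripts, which left 543 cells at E6.75 (85 to 96 per library) and 429 at E7.5 (15 to 71 in 11 libraries, with 0 in replicate 5). Kept cells of a library summed to between 2921862 and 5493791 transcripts at E6.75 and between 488908 and 2618539 at E7.5. Median depth per cell was 39348 and 31203 transcripts. No library read as a second count of another (chi-square per degree of freedom at least 2.95 between E6.75 libraries and 2.22 between E7.5 libraries). Replicates 2_13 and 2_14 did stand apart as the most alike E6.75 pair, at 2.95 against at least 7.71 for the other pairs. The cause was not tested. Libraries reused well barcodes, so that 88 of 153 library pairs shared barcode columns. The 7 epiblast markers were all detected at both stages, with a summed level of 5496 to 6725 CPM in the E6.75 libraries and 1344 to 3800 CPM in the E7.5 ones. Levels are given throughout as counts per 1000000 nuclear transcripts (CPM) in the summed cells of a library, and means carry the SD over libraries. These are counts of 3′ ends, not levels per gene length, so levels were not compared between genes.

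The stage comparison asked how the 5 genes differed between whole collections. Twist1, Zeb2, Vim and Fn1 were higher at E7.5 in every library, by log2 fold changes of 2.61 to 3.23. Snai1 differed less, and its ranges overlapped. In sums over all kept cells, 9998 genes passed the filter on low counts, the 5 members among them. Of these, 38.8% differed (edgeR quasi-likelihood test, Benjamini-Hochberg adjusted p under 0.05), 20.0% were higher at E7.5, and for 4.01% every E7.5 library lay above every E6.75 library. All 5 members were called higher, against that background of 20.0%, and 4 of the 5 did not overlap, against 4.01%.

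Snai1 levels at E6.75 were 5.96 CPM in replicate 1_10, the lowest, with a median of 17.9 and 67.1 in replicate 2_13, the highest. At E7.5 they ran from 21.6 through a median of 53.4 to 205 CPM in replicate 9, a library of 15 cells. Only 2 of 11 E7.5 libraries lay above all E6.75 libraries. The mean was 26.4 CPM ± 23.7 (SD, n = 6) at E6.75 and 65.1 ± 48.8 (n = 11) at E7.5. On the log2 scale the difference was 1.12 (SE 0.437, edgeR adjusted p = 0.048). That call held in 10 of 24 alternatives, over which the log2 fold change ran from 0.68 to 1.64 and the adjusted p from 0.00572 to 0.23. It was lost without E6.75 replicate 1_10 (0.92, edgeR adjusted p = 0.099), 1_11 (0.93, 0.11), 2_12 (0.98, 0.10) or 2_9 (1.09, 0.077), without E7.5 replicate 9 (0.84, 0.084), and by a smaller margin without E7.5 replicate 1 (1.13, 0.056), 6 (1.11, 0.061), 7 (1.16, 0.050), 8 (1.13, 0.057), 10 (1.13, 0.054), 11 (1.08, 0.068) or 12 (1.14, 0.051). It was also lost when cells rich in visceral endoderm markers were left out (1.09, 0.051), and with only the 4 E6.75 libraries whose replicate names begin with 2 (0.68, 0.23).

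Twist1 levels ran from 3.50 through a median of 7.0 to 11.3 CPM at E6.75, and from 29.1 through 53.04 to 93.3 CPM at E7.5. All 11 E7.5 libraries lay above all 6 E6.75 libraries. The log2 fold change was 2.85 (SE 0.30, edgeR adjusted p = 3.3e-07). Zeb2 was the least counted of the 3 factors at E6.75, where it was found in 45 of 543 cells. Its level there was 1.10 CPM in the lowest library, 2.69 in the median and 4.74 in the highest. At E7.5 it ran from 16.9 through 25.9 to 46.6 CPM, with no overlap and a log2 difference of 3.23 (SE 0.276, edgeR adjusted p = 1.7e-08). The Zeb2 difference was the largest of the 5.

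Vim levels lay within a narrow band at E6.75, from 21.8 through a median of 36.9 to 44.6 CPM. At E7.5 they ran from 122 through 210 to 387 CPM, again with no overlap. Its log2 fold change was 2.61 (SE 0.229, edgeR adjusted p = 2.7e-08). Fn1 levels at E6.75 split unevenly: 4 libraries lay between 41.9 and 56.3 CPM, while replicates 2_14 and 2_13 had 141 and 181. At E7.5, Fn1 ran from 286 through 615.5 to 953 CPM, all above E6.75. The log2 fold change was 2.69 (SE 0.324, edgeR adjusted p = 1.9e-06). The calls for Twist1, Zeb2, Vim and Fn1 held in every alternative run.

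The share of cells with at least 1 transcript followed the levels, although a share also rises with depth. Mean shares per library at E6.75 and E7.5 were 32.2% and 52.2% for Snai1, 16.5% and 37.8% for Twist1, and 8.18% and 43.2% for Zeb2. For Vim they were 52.9% and 76.1%, and for Fn1 68.8% and 85.3%. When each cell was thinned to 2000 transcripts, Snai1 moved from 4.24% to 10.3%, Twist1 from 1.54% to 7.95%, Zeb2 from 0.567% to 5.23%, Vim from 6.34% to 28.0% and Fn1 from 12.6% to 45.6%. No cell was too shallow for this. At equal depth, too, each gene was found in a larger mean share of E7.5 cells.

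The makeup of the collections moved with stage as well. Markers of paraxial mesoderm (6 of 6 above 0 at both stages) summed to 6.29 to 14.8 CPM in the E6.75 libraries and 102 to 302 in the E7.5 ones. Those of lateral and extraembryonic mesoderm (6 of 6 at both stages) summed to 15.4 to 97.7 and 43.4 to 789 CPM. Visceral endoderm markers (11 of 11 at both stages) went the other way, from a median of 239 CPM (range 140 to 946) to 13 (range 2.97 to 365.5). The mitochondrial share of transcripts in the median cell of a library was 13.1% to 18.5% in the E6.75 libraries and 8.96% to 12.8% in the E7.5 ones, without overlap. The part of these cell types and of this share in the stage differences was not tested. In sums of this kind, more cells with a transcript and more transcripts per cell cannot be told apart.

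**Figure D1:**
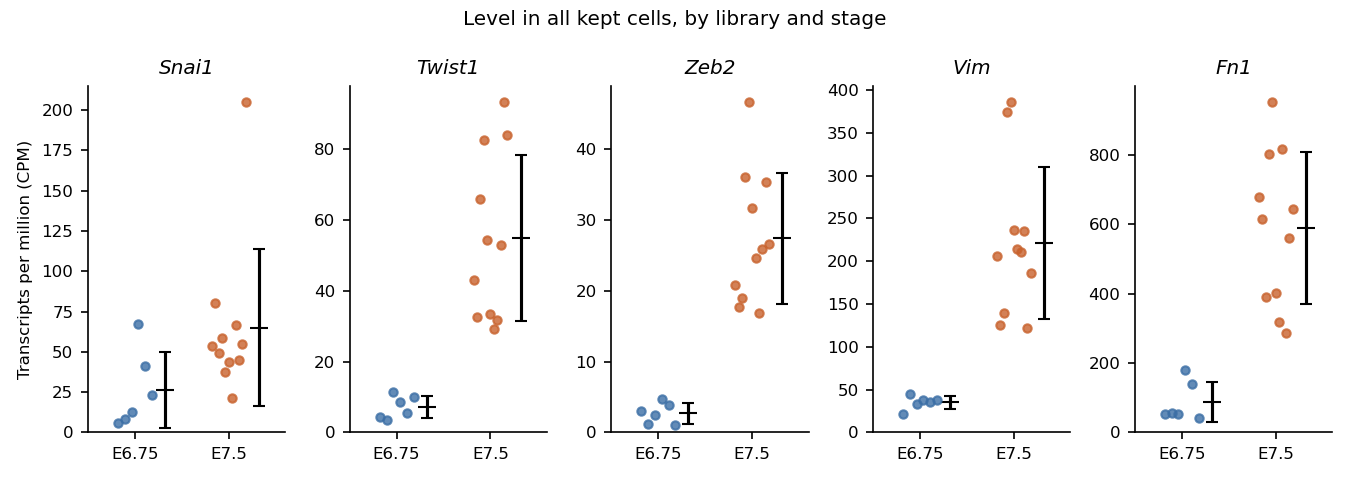
Level of each gene (y axis, CPM) in all kept cells of each library (points) at E6.75 (6 libraries) and E7.5 (11 libraries), with mean and SD beside the points. The E7.5 libraries lie above all E6.75 libraries for Twist1, Zeb2, Vim and Fn1, while the Snai1 ranges overlap.

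The stages were next compared in cells with no transcript of T, Mesp1 or Foxa2, the 3 gate genes. This comparison was added after the stage result was seen. Vim and Fn1 were higher at E7.5 in these cells too. There were 304 such cells at E6.75 and 117 at E7.5, after leaving out 14 E6.75 cells with at least 1% of their transcripts from visceral endoderm markers. In these cells, lateral and extraembryonic mesoderm markers had a median sum of 21.5 CPM at E6.75 and 345 at E7.5. Paraxial mesoderm markers had 8.06 and 42.5 CPM, and epiblast markers 7153 and 4095. The makeup of these cells thus also moved with stage, and its part in the differences was not tested. Of 9219 genes tested over 10 libraries of both stages together, each with at least 10 such cells, 12.5% differed. The E7.5 levels below also cover libraries with fewer such cells, which the fit left out. Vim ran from 20.4 through a median of 38.5 to 48.7 CPM in E6.75 libraries, and from 76.7 through 183 to 592 CPM in the 10 E7.5 libraries with at least 3 such cells. The Vim ranges did not overlap, and its log2 fold change was 2.35 (SE 0.287, edgeR adjusted p = 2.6e-05). Fn1 averaged 52.0 CPM ± 9.51 (SD, n = 6) and 341 ± 326 (n = 10), with 9 of 10 E7.5 libraries above all E6.75 libraries. Its log2 fold change was 2.37 (SE 0.425, edgeR adjusted p = 0.0011).

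Snai1 in these cells averaged 8.60 CPM ± 4.02 (SD, n = 6) and 27.0 ± 15.9 (n = 10), and the difference missed the threshold (1.27, SE 0.444, edgeR adjusted p = 0.070). Twist1 and Zeb2 were too low in these cells to pass the filter. Zeb2 averaged 1.38 CPM ± 1.27 at E6.75 and 24.1 ± 20.9 at E7.5. The highest E6.75 library was at 3.55 CPM and the lowest E7.5 one at 4.79, so its ranges parted only near the floor. Replicate 2, with 5 such cells, was at 80.0 CPM (next 25.2) and was not in the fit. With no filter the log2 fold change of Zeb2 was 3.24 (edgeR adjusted p = 1.3e-06), and that of Twist1 was 1.58 (edgeR adjusted p = 0.016). Without E6.75 replicate 2_9 the Snai1 difference passed the threshold (1.5, edgeR adjusted p = 0.029). These E7.5 cells were shallower than the E6.75 ones (median 20797 against 31655 transcripts), and detection of the 3 gate genes depends on depth.

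Cells were then split within each library by whether they held at least 1 transcript of T. Snai1 and Fn1 were higher in E6.75 cells with T, and Snai1 in E7.5 cells with T. There were 154 cells with T and 375 without at E6.75, and 283 and 146 at E7.5. Of 9839 genes tested at E6.75 with the library as a block, 3.57% differed, and of 6231 at E7.5, 2.09%. At E6.75, Snai1 was called and Fn1 was called, and at E7.5 only Snai1 was, of 4 members tested at E6.75 and 5 at E7.5.

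Snai1 in E6.75 cells with T ran from 12.2 CPM in replicate 1_10 through a median of 40.6 to 114 CPM in replicate 2_13. Without T it ran from 4.27 through 7.83 to 12.5 CPM, so the ranges barely overlapped. It was higher with T in 6 of 6 libraries, by 2.55 on the log2 scale (SE 0.201, edgeR adjusted p = 1.6e-08). In E7.5 cells it averaged 76.7 CPM ± 48.3 (SD, n = 11) with T and 27.3 ± 16 without, and was higher with T in 10 of 11 libraries. That log2 fold change was 1.11 (SE 0.212, edgeR adjusted p = 0.0026). Both calls held in the 16 and 21 alternatives in which Snai1 was tested. It did not pass the filter in cells thinned to 2000 transcripts, where the mean share of cells with Snai1 was 8.45% with T and 1.84% without at E6.75, and 12.9% and 5.07% at E7.5.

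Twist1 averaged 9.46 CPM ± 4.87 with T and 5.25 ± 3.17 without at E6.75 (SD, n = 6), and its difference missed the threshold (0.97, SE 0.291, edgeR adjusted p = 0.072). It passed in 3 of 16 alternatives, without replicate 2_12 (1.20, edgeR adjusted p = 0.041), with no filter on low counts (0.94, 0.038) and with cells past 0.3% of visceral endoderm markers left out (1.13, 0.037). Its E7.5 means were 72.06 ± 53.6 and 34.3 ± 29.2 (1.01, SE 0.371, edgeR adjusted p = 0.24), and it passed in 1 of 21 alternatives, that with no filter (1.05, edgeR adjusted p = 5.8e-06). Zeb2 was not tested at E6.75, where it averaged 4.0 ± 3.01 and 1.61 ± 0.991 CPM, and at E7.5 it averaged 30.9 ± 11.2 and 23.6 ± 20.6 (0.41, edgeR adjusted p = 0.62). Fitted as planned, neither Twist1 at either stage nor Zeb2 at E7.5 passed the test.

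Vim was at nearly the same mean level on both sides of the T split. At E6.75 it averaged 34.1 CPM ± 9.0 with T and 35.3 ± 8.58 without (SD, n = 6), and was lower with T in 5 of 6 libraries. At E7.5 it averaged 226 ± 91.0 and 230 ± 142 (n = 11). The log2 fold changes were 0.00 and 0.04 (edgeR adjusted p = 1 and 0.98). Over the alternatives the E6.75 value ran from −0.19 to 0.06 and the E7.5 value from −0.04 to 0.15, and none passed the threshold. Both sides held mesoderm markers at E7.5. Those of lateral and extraembryonic mesoderm had a median sum of 234 CPM with T and 516 without. Those of paraxial mesoderm had 244 and 81.6 CPM. The part of this makeup in the Vim levels was not tested.

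Fn1 with T at E6.75 was 48.9 to 71.07 CPM in 4 libraries, and 217 and 278 in replicates 2_14 and 2_13. Without T it ran from 35.3 through 52.06 to 64.1 CPM. It was higher with T in 6 of 6 libraries (1.14, SE 0.202, edgeR adjusted p = 0.0011), but not by DESeq2 (0.85, adjusted p = 0.41) or with no replicate block (1.3, edgeR adjusted p = 0.12). Its E7.5 means were 702 ± 256 and 406 ± 344 CPM, was higher with T in 9 of 11 libraries, and missed the threshold (1.03, SE 0.280, edgeR adjusted p = 0.053). It passed in 6 of 22 alternatives, without replicate 1 (1.17, edgeR adjusted p = 0.026), 6 (1.19, 0.024), 7 (1.20, 0.016) or 10 (1.28, 0.0036), with no filter (1.10, 5.2e-30) and with at least 2 transcripts of T (1.18, 0.025). The 72 E6.75 cells with T alone, without Mesp1 or Foxa2, had lower means of 18.7 CPM ± 3.56 for Snai1 and 65.7 ± 13.5 for Fn1 (SD, n = 6). In all E6.75 cells with T these means were 49.8 and 121 CPM. Cells with T were deeper than those without (median 55530 against 33123 transcripts at E6.75, 34146 against 22284 at E7.5). In cells thinned to 2000 transcripts the E7.5 Fn1 value was −0.39 (edgeR adjusted p = 0.54).

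Cells with Mesp1 had the highest mean levels of Snai1, Twist1 and Fn1 among the cells with T, Mesp1 or Foxa2. These E6.75 means cover 3 libraries with Mesp1 but 6 with T or Foxa2. Fn1 in replicate 2_9 was at 40.6 CPM with Mesp1, while every E6.75 library with T was at 48.9 or more. At E6.75, 50 cells held Mesp1 and 479 did not, and 3 libraries had at least 3 cells on each side (28, 17 and 5 cells with Mesp1 in replicates 2_13, 2_14 and 2_9). Most of these cells thus came from replicates 2_13 and 2_14, the most alike pair of E6.75 libraries. Of 9989 genes tested there, 1.24% differed, and 3 of the 4 members tested (Snai1, Twist1 and Fn1) were called higher. At E7.5, 137 cells held Mesp1 and 292 did not, in 11 libraries, and 6.43% of 6155 genes differed. There, too, Snai1, Twist1 and Fn1 were called higher, of 5 members tested.

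In E6.75 cells with Mesp1, Snai1 was at 175 CPM in replicate 2_13, 171 in 2_14 and 77.2 in 2_9. Without Mesp1 the same libraries gave 22.9, 13.2 and 14.9 CPM. The sides did not overlap, and the log2 fold change was 3.08 (SE 0.210, edgeR adjusted p = 6.2e-07). This was the largest difference of any member in this split at E6.75. At E7.5, Snai1 ran from 50.2 through a median of 89.4 to 239 CPM with Mesp1 and from 11.9 through 30.2 to 106 CPM without. It was higher with Mesp1 in 11 of 11 libraries (1.72, SE 0.211, edgeR adjusted p = 2.9e-06).

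Twist1 in E6.75 cells with Mesp1 was at 19.9, 12.1 and 20.3 CPM in replicates 2_13, 2_14 and 2_9, against 3.94, 4.01 and 7.28 without. It was higher in 3 of 3 libraries (1.84, SE 0.386, edgeR adjusted p = 0.026). The call rested on replicate 2_13 (1.52, edgeR adjusted p = 0.39 without it) and was not made by DESeq2 (1.84, adjusted p = 0.15). At E7.5, Twist1 had the largest log2 fold change of the 5 members in this split. It ran from 53.6 through 100.4 to 379 CPM with Mesp1 and from 2.35 through 13.6 to 70.5 CPM without, higher in 11 of 11 libraries (2.76, SE 0.281, edgeR adjusted p = 2.4e-07).

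Zeb2 passed the test in this split at neither stage. At E6.75 it was at 11.8 and 12.1 CPM in replicates 2_13 and 2_14 with Mesp1, against 1.84 and 2.13 without. In replicate 2_9 it had 0 transcripts in 5 cells with Mesp1, a count that allows up to 6.09 CPM. It did not pass the filter (2.19 with no filter, edgeR adjusted p = 0.024). At E7.5 it averaged 39.5 CPM ± 17.4 with Mesp1 and 20.4 ± 14.8 without, higher in 9 of 11 libraries but short of the threshold (0.63, SE 0.262, edgeR adjusted p = 0.19). With no filter on low counts the E7.5 difference passed it (0.64, edgeR adjusted p = 0.042).

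Vim did not follow Mesp1 at E7.5. In E6.75 cells it was at 49.8, 50.7 and 58.9 CPM with Mesp1 and 33.4, 33.1 and 35.4 without, in the order 2_13, 2_14, 2_9. That was higher in 3 of 3 libraries, yet short of the threshold (0.65, SE 0.18, edgeR adjusted p = 0.14). At E7.5 it averaged 225 CPM ± 116 with Mesp1 and 222.5 ± 127 without (SD, n = 11), higher in 6 of 11 libraries (−0.03, edgeR adjusted p = 0.996). The E7.5 value ran from −0.14 to 0.18 over 21 alternatives.

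Fn1 in E6.75 cells with Mesp1 was at 437 CPM in replicate 2_13 and 501 in 2_14, against 73.8 and 64.0 without. In replicate 2_9, with 5 such cells, the values were 40.6 and 39.7. The log2 fold change was 2.33 (SE 0.301, edgeR adjusted p = 3.8e-04), and DESeq2 did not call it (1.96, adjusted p = 0.95). At E7.5, Fn1 ran from 604 through 1073 to 1476 CPM with Mesp1 and from 93.3 through 231 to 668 CPM without. It was higher in 11 of 11 libraries (1.93, SE 0.206, edgeR adjusted p = 4.0e-07). Thinning cells to 2000 transcripts left 0.83 (edgeR adjusted p = 0.11).

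**Figure D2:**
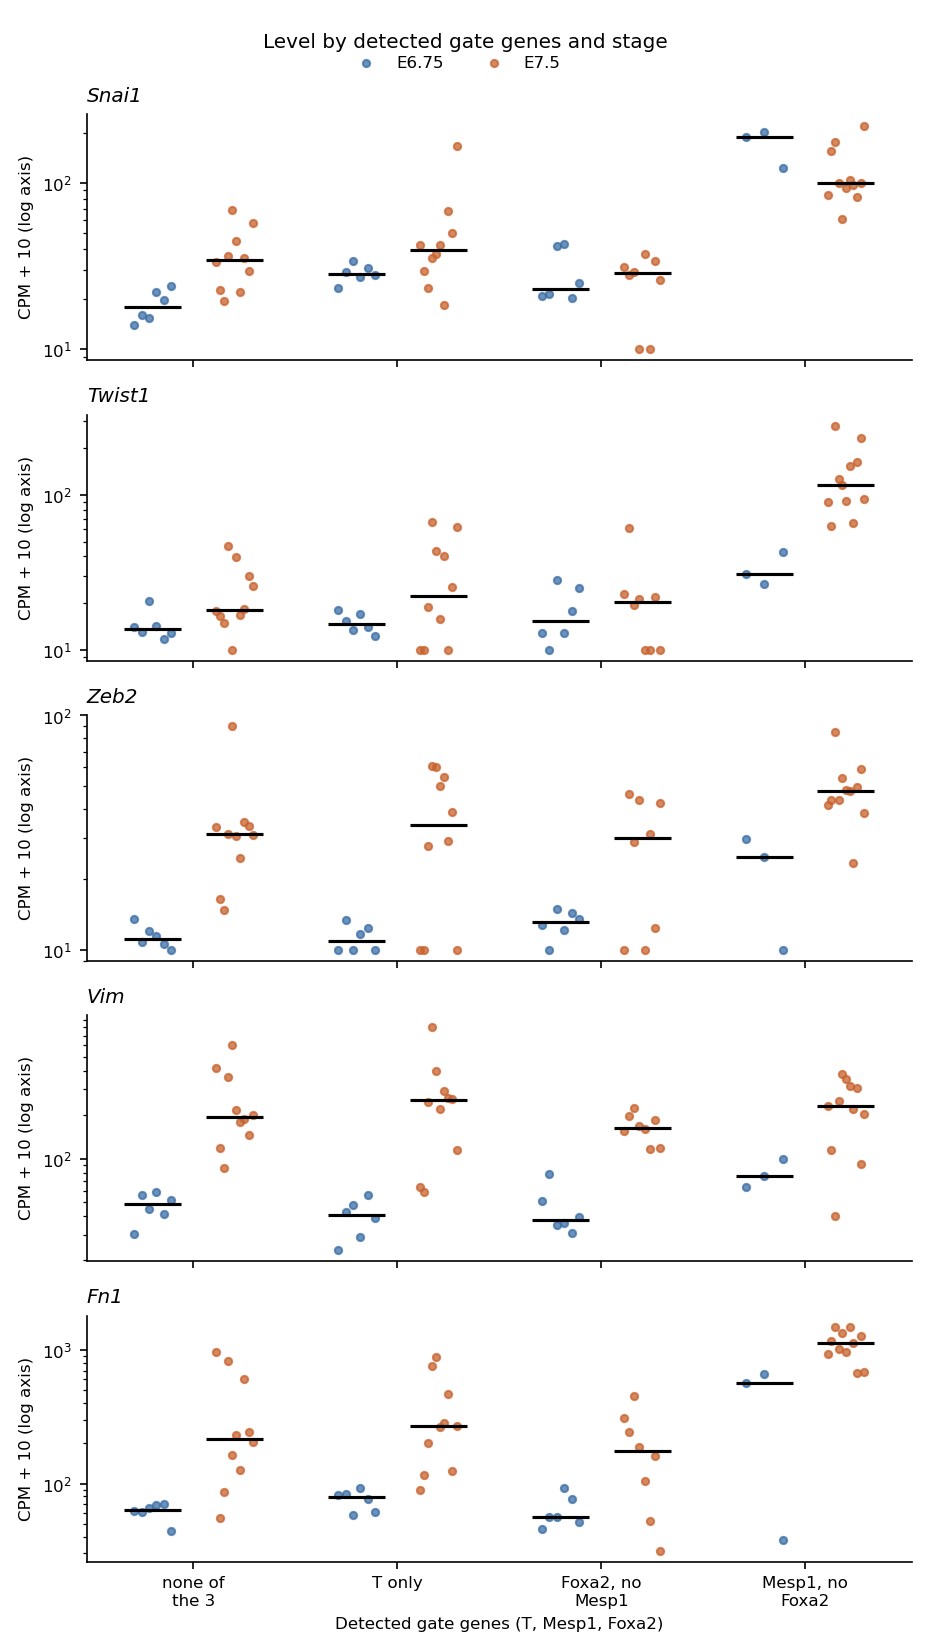
Level of each gene on a log axis (CPM + 10) in each library (points, at least 3 cells) by detected gate genes, at E6.75 (blue) and E7.5 (orange), with the median as a bar. Snai1, Twist1 and Fn1 have their highest medians in cells with Mesp1 and no Foxa2, while E7.5 Vim overlaps across the 4 classes.

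Cells with Foxa2 had few differences in the members. At E6.75, 124 cells held Foxa2 and 405 did not, and 2.39% of 9804 genes differed. At E7.5, 61 held it and 368 did not, and 2.62% of 6460 genes differed over 9 libraries with at least 3 cells on each side. Of the members tested (4 and 5), Fn1 alone was called at either stage, and lower with Foxa2 at both.

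Fn1 at E6.75 averaged 69.7 CPM ± 45.4 with Foxa2 and 95.07 ± 71.5 without (SD, n = 6), and was lower in 5 of 6 libraries (−0.44, SE 0.116, edgeR adjusted p = 0.048). That call held in 7 of 17 alternatives, and was lost without replicates 1_10 (−0.42, edgeR adjusted p = 0.10), 2_13 (−0.40, 0.34) or 2_14 (−0.32, 0.45). At E7.5 it ran from 21.5 through 179 to 760 CPM with Foxa2, and averaged 263 ± 249 against 629 ± 278 without. It was lower in 8 of 9 libraries (−1.12, SE 0.259, edgeR adjusted p = 0.013), held in 16 of 20 alternatives, and moved to −0.49 (edgeR adjusted p = 0.38) with at least 5 cells on each side and to −0.05 (0.98) in thinned cells.

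Snai1 at E6.75 averaged 30.9 CPM ± 23.7 with Foxa2 and 25.2 ± 23.0 without (0.21, SE 0.209, edgeR adjusted p = 0.76). Over the 9 E7.5 libraries its means were 28.1 ± 24.2 and 53.7 ± 21.9, and it was lower with Foxa2 in 7 of 9 libraries (−0.58, SE 0.289, edgeR adjusted p = 0.43). Twist1 was likewise lower with Foxa2 in 7 of 9 libraries at E7.5, with means of 27.5 ± 35.1 and 58.4 ± 34.5 CPM (−0.97, SE 0.351, edgeR adjusted p = 0.18). Without replicate 12, where Twist1 was at 107 CPM in cells with Foxa2, its difference passed the threshold (−1.53, edgeR adjusted p = 0.0047). Zeb2 and Vim at E7.5 were lower with Foxa2 in 7 and 8 of 9 libraries, with log2 fold changes of −0.60 (SE 0.280) and −0.24 (SE 0.167) that did not pass the test (edgeR adjusted p = 0.37 and 0.64). Twist1 and Vim at E6.75 did not pass it either (0.39 and −0.38, edgeR adjusted p = 0.71 and 0.42).

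Visceral endoderm, which also makes Foxa2, moved with this split at E6.75. Its markers (11 of 11 above 0 on both sides) summed to 173 to 1215 CPM with Foxa2 and 13.1 to 149 without. In the 39 E6.75 cells with at least 0.3% of transcripts from these markers, Snai1 averaged 2.44 CPM and Twist1 20.1. Of the 124 cells with Foxa2, 21 were such cells. Leaving out all cells past 0.3% gave an Fn1 difference of −0.42 (edgeR adjusted p = 0.15) and a Snai1 difference of 0.36 (edgeR adjusted p = 0.81). At E7.5, 1 of 61 cells with Foxa2 was past 0.3%.

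A direct comparison set cells with Mesp1 and no Foxa2, the Mesp1 side, against cells with Foxa2 and no Mesp1, the Foxa2 side. At E6.75, definitive endoderm markers summed to 54.4 to 219 CPM on the Foxa2 side and 28.1 to 49.1 on the Mesp1 side. With none of the gate genes they summed to 62.5 to 174 CPM. Node and notochord markers had median sums of 11.2, 4.96 and 3.64 CPM in the same order, with no transcript of Noto or Shh. At E7.5 the medians of the 2 lists on the Foxa2 side were 393 and 320 CPM. In definitive endoderm markers the E6.75 Foxa2 side thus lay above the Mesp1 side, but overlapped cells with none of the gate genes. How much of it was definitive endoderm or axial cells was not tested. Snai1 and Fn1 were higher on the Mesp1 side at both stages, Twist1 at E7.5 and Vim at E6.75. There were 29 and 103 such cells at E6.75, where 2.02% of 8112 genes differed over 3 libraries, and 125 and 49 at E7.5, where 4.97% of 4468 genes differed over 8 libraries. Of the 4 members tested, 3 were called at each stage, and Zeb2 passed the filter at neither.

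Snai1 on the Mesp1 side at E6.75 was at 178, 191.8 and 112 CPM in replicates 2_13, 2_14 and 2_9, against 32.8, 10.4 and 14.9 on the Foxa2 side. The sides did not overlap (3.04, SE 0.270, edgeR adjusted p = 8.4e-07). At E7.5, Snai1 on the Foxa2 side ran from 0 through 18.5 to 27.2 CPM, below every library of the Mesp1 side (50.9 to 165 CPM over the same 8 libraries). The log2 fold change was 2.10 (SE 0.290, edgeR adjusted p = 2.2e-05), higher in 8 of 8 libraries.

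Twist1 at E7.5 ran from 55.7 to 270 CPM on the Mesp1 side and from 0 to 50.7 CPM on the Foxa2 side of the same 8 libraries, again without overlap. It was higher in 8 of 8 libraries (3.17, SE 0.365, edgeR adjusted p = 1.6e-06). At E6.75 it was higher in 3 of 3 libraries without passing the test (1.68, SE 0.481, edgeR adjusted p = 0.10). Zeb2 at E7.5 averaged 41.3 CPM ± 17.2 on the Mesp1 side and 18.1 ± 15.5 on the Foxa2 side, higher in 6 of 8 libraries. With no filter its E7.5 difference was 1.25 (edgeR adjusted p = 0.016).

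Vim at E6.75 was at 54.1, 66.1 and 88.9 CPM on the Mesp1 side in replicates 2_13, 2_14 and 2_9, against 26.3, 20.8 and 29.7 on the Foxa2 side. It was higher in 3 of 3 libraries (1.40, SE 0.252, edgeR adjusted p = 0.0026), and without replicate 2_14 the adjusted p was 0.070. Over the 8 E7.5 libraries it averaged 234 ± 122 and 155 ± 36.5 CPM, higher in 6 of 8 libraries and short of the threshold (0.47, SE 0.177, edgeR adjusted p = 0.16). In 5 of 18 alternatives the E7.5 difference passed it, among them the one without replicate 12 (0.60, edgeR adjusted p = 0.012).

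Fn1 at E6.75 was at 559 and 650 CPM on the Mesp1 side in replicates 2_13 and 2_14, against 82.0 and 66.9 on the Foxa2 side. Replicate 2_9, with 3 cells on the Mesp1 side, went the other way, with 28.1 against 42.0 CPM. The log2 fold change was 2.58 (SE 0.314, edgeR adjusted p = 3.7e-05), which DESeq2 did not call (2.03, adjusted p = 1). At E7.5, Fn1 averaged 1156 ± 283 CPM on the Mesp1 side and 183 ± 140.5 on the Foxa2 side, higher in 8 of 8 libraries (2.43, SE 0.227, edgeR adjusted p = 5.4e-08). The 21 E6.75 cells with both Mesp1 and Foxa2 had pooled levels of 137 CPM for Snai1 and 235 for Fn1. A level of 0 in these splits allowed 1.43 to 17.2 CPM at E6.75 and 11.6 to 230 CPM at E7.5, depending on the cells summed, counting error only.

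**Figure D3:**
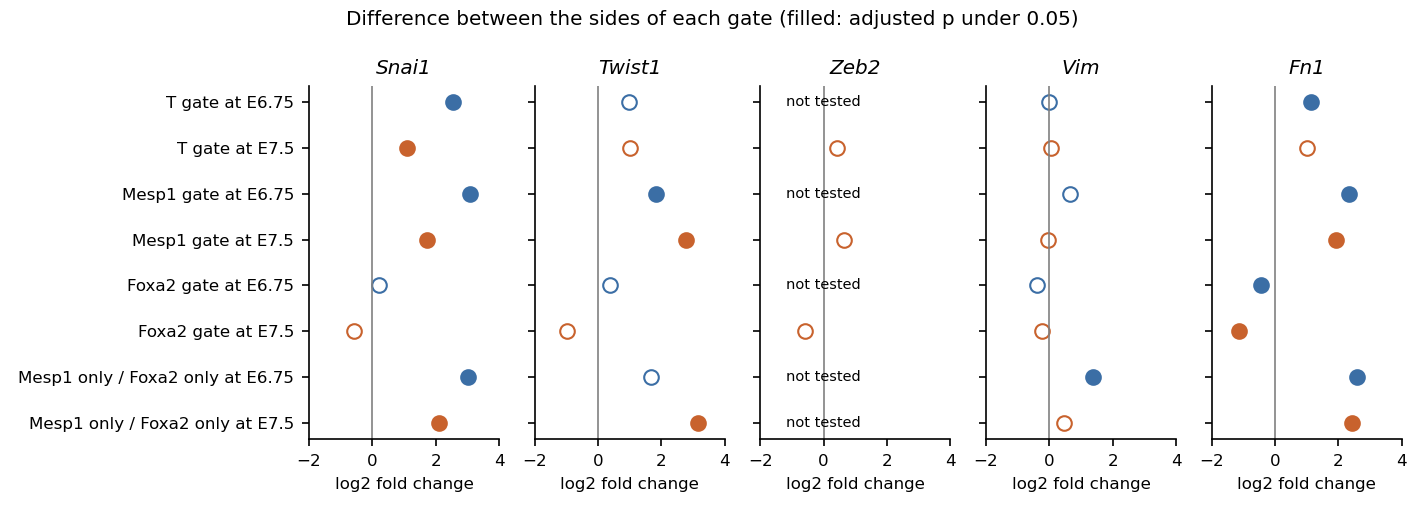
Log2 fold change of each gene (x axis) between the sides of the T, Mesp1 and Foxa2 splits and between the Mesp1 and Foxa2 sides, at E6.75 (blue) and E7.5 (orange). Filled points passed an edgeR adjusted p of 0.05. Snai1 is filled in every row but the Foxa2 split, and Vim in 1 row, the E6.75 comparison of the Mesp1 and Foxa2 sides.

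Whether each split changed with stage was tested as an interaction, the E7.5 difference minus the E6.75 difference. Snai1 in the T split passed the threshold, and no other member did in any of the 4 comparisons. Its difference narrowed by a log2 value of −1.41 (SE 0.330, edgeR adjusted p = 0.039), where 0.447% of 8278 genes passed. The call was lost without E6.75 replicates 2_12 (−1.40, edgeR adjusted p = 0.072), 2_13 (−1.11, 0.22) or 2_14 (−1.27, 0.18), without E7.5 replicates 1 (0.052), 2 (0.064), 3 (0.12), 8 (0.050) or 11 (0.058), by DESeq2 (−1.22, adjusted p = 0.27), with no replicate block (−1.3, edgeR adjusted p = 1) and with cells past 0.3% of visceral endoderm markers left out (−1.33, 0.074). In the Mesp1 split the change in Snai1 was −1.32 (SE 0.356, edgeR adjusted p = 0.12), where 0.341% of 8215 genes passed. Without E7.5 replicate 12 it passed the threshold (−1.52, 0.012). Twist1 changed by 0.96 in the Mesp1 split (SE 0.626, edgeR adjusted p = 0.99) and by 1.56 between the Mesp1 and Foxa2 sides (SE 0.689, edgeR adjusted p = 0.66). In the Foxa2 split Twist1 changed by −1.38 (edgeR adjusted p = 0.36), and by −1.92 (0.034) without E7.5 replicate 12. For that split 1.10% of 8720 genes passed, and for the Mesp1 against the Foxa2 side 0.444% of 7665. Thus the different sets of members called at the 2 stages were not shown to differ between stages. Snai1 with T was called at both stages, and its narrowing passed in 16 of 27 alternatives.

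**Figure D4:**
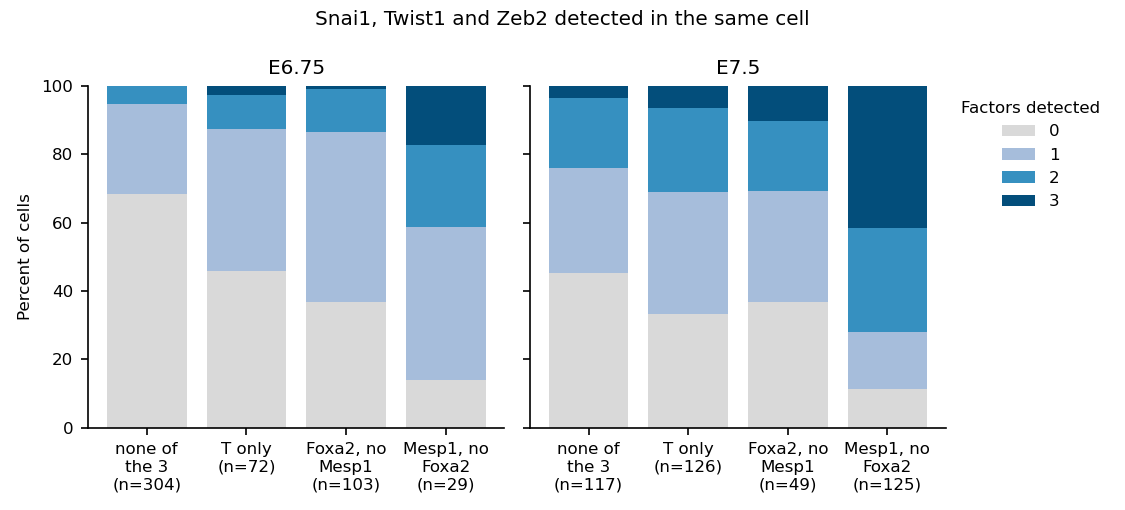
Percent of cells (y axis) in which 0, 1, 2 or 3 of Snai1, Twist1 and Zeb2 were detected, by detected gate genes (x axis, number of cells below each bar), at E6.75 and E7.5. All 3 were found in 41.6% of E7.5 cells with Mesp1 and no Foxa2.

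The 3 factors were counted together in single cells as a description. In cells with Mesp1 and no Foxa2, all 3 were detected in 17.2% of 29 cells at E6.75 and in 41.6% of 125 at E7.5. In cells with Foxa2 and no Mesp1 this was 0.971% of 103 and 10.2% of 49. Among cells with none of the 3 gate genes it was 0 of 304 cells at E6.75, which allows a share of up to 0.987%, and 3.42% of 117 at E7.5. Cells with T alone stood between, at 2.78% of 72 and 6.35% of 126. Median depth ran from 61109 transcripts in E6.75 cells with Mesp1 and no Foxa2 to 20797 in E7.5 cells with none, so detection was not equal between classes.

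Snai1 was mostly found without Twist1 at E6.75 and mostly with it at E7.5 on the Mesp1 side. Of cells with Mesp1 and no Foxa2 that held Snai1, 41.7% of 24 also held Twist1 at E6.75 and 70.5% of 95 at E7.5. Of those that held Twist1, 100% of 10 and 85.9% of 78 also held Snai1. Fn1 was found in 100% of the 24 and 98.9% of the 95 Snai1 cells. After thinning, Snai1 was found in a mean of 24.7% of these E6.75 cells and 17.1% of the E7.5 ones, and Twist1 in 5.15% and 17.3%. Twist1 was thus at a higher share at equal depth at E7.5, while Snai1 was not.

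Further lineage genes describe which E7.5 cells held the members, with no test. Foxc2, a forkhead gene of paraxial and head mesoderm, was detected in 84 cells. Twist1 in these cells ran from 87.7 through 145 to 304 CPM, and in the other cells from 6.56 through 9.66 to 47.5 CPM, with no overlap over 11 libraries. Vim was not higher there on average, at 197 CPM ± 119 against 242 ± 103. Snai1 averaged 103 ± 34.2 with Foxc2 and 54.9 ± 70.8 without, and Fn1 1179 ± 386 and 388 ± 220.

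Hand1, a gene of lateral and extraembryonic mesoderm, gave the reverse order for Twist1 and Vim. In its 193 cells Vim ran from 157 through 289 to 532 CPM, against 56.2 through 141 to 229 CPM in cells without Hand1. Twist1 averaged 40.6 ± 19.8 with Hand1 (SD, n = 10) and 69.2 ± 48.4 without (n = 11). Tal1, a blood and endothelial factor, was detected in 32 cells, where Vim averaged 478 ± 198 CPM (SD, n = 5) against 208 ± 76.7 without (n = 11). Snai1 averaged 26.0 ± 17.4 with Tal1 and 67.6 ± 48.3 without. The means of Vim and Twist1 thus moved in opposite directions across Hand1.

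Sox2, kept in epiblast and neural ectoderm, was also detected in 193 E7.5 cells and not in the other 236. With Sox2, Vim averaged 133 CPM ± 54.5 and Fn1 261 ± 121 (SD, n = 10). Without it (n = 11), Vim averaged 340 ± 152 and Fn1 919 ± 317. Snai1 averaged 39.8 ± 16.2 with Sox2 and 71.7 ± 50.1 without, and Twist1 31.3 ± 32.7 and 84.8 ± 56.1. Zeb2 lay closest, at 25.8 ± 10.9 and 32.0 ± 10.8 CPM. Zeb2 and Vim in E7.5 cells with Sox2 were nonetheless above their levels in all E6.75 libraries, with lowest values of 14.7 and 53.8 CPM.

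Sox17, a gene of definitive endoderm and endothelium, was detected in 38 E7.5 cells. Twist1 averaged 21.6 CPM ± 25.1 with Sox17 (SD, n = 7) and 61.8 ± 30.9 without (n = 11), while Vim averaged 218 ± 124 and 220 ± 97.1. Noto, a notochord gene, was detected in 13 cells, 8 of them in replicate 2. Pooled, these held Snai1 and Twist1 at 2.67 CPM each, from 1 cell each, but Zeb2 at 29.3, Vim at 181 and Fn1 at 160. Vim and Zeb2 were therefore present in these few cells, mostly of 1 library, where Snai1 and Twist1 were almost uncounted.

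**Figure D5:**
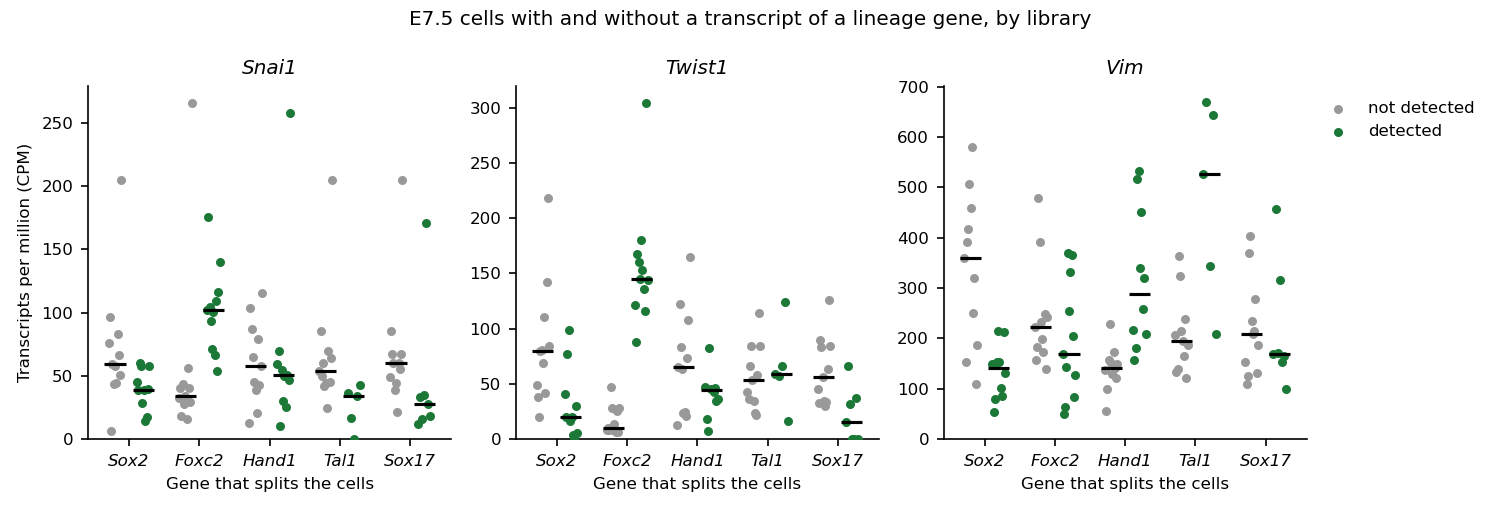
Level of Snai1, Twist1 and Vim (y axis, CPM) in E7.5 cells with (green) and without (grey) a transcript of Sox2, Foxc2, Hand1, Tal1 or Sox17, by library (points), with the median as a bar. Twist1 separates by Foxc2 with no overlap, and Vim is lower with Sox2 and higher with Hand1.

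Other genes of the transition were followed as 4 lists. They were first compared between stages. Of 14 tested epithelial genes, 9 fell and 1 rose, with a median log2 fold change of −0.84 against 0.03 over all genes and 38.8% of genes called. Crb3, an apical polarity gene, fell by 1.39, the claudin gene Cldn7 by 1.16 and the tight junction gene Marveld3 by 1.16, while the desmosomal gene Dsp rose by 1.33. Of 9 adhesion and matrix genes tested, 5 rose and 0 fell by edgeR and by DESeq2 (median 0.78, 6 at an unadjusted p under 0.05), among them Col1a1 (3.67), the N-cadherin gene Cdh2 (2.28), the cadherin gene Cdh11 (2.14) and the protease gene Mmp2 (0.81). Of 6 other filament and lamin genes, the keratin gene Krt8 rose (1.58; list median 0.38). Of 5 other EMT transcription factors, Foxc2 (7.06), Sox9 (2.99) and Tcf4 (0.73) rose (list median 0.73). Foxc2 is a mesoderm factor and Krt8 a keratin of simple epithelia.

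With T at E6.75, 5 of 16 epithelial genes fell (median −0.35 against 0.00 over all genes, 3.57% called), including Marveld3 (−0.97), Cldn7 (−0.45), Cldn6 (−0.44) and Epcam (−0.31). Cdh11 (3.29) and the membrane protease gene Mmp14 (0.74) rose and Sparc fell (−0.42) among 8 adhesion and matrix genes (median 0.30). The keratin genes Krt18 (−0.95) and Krt8 (−0.78) fell among 6 filament genes (median −0.06), and Gsc, a gene of the anterior streak, rose (1.45) among 4 factors (median 0.18). Visceral endoderm markers had a median sum of 31.5 CPM with T and 242 without at E6.75. With cells past 0.3% of these markers left out, 1 of 6 filament and 5 of 16 epithelial genes fell. The part of visceral endoderm in the keratin differences was not tested. With T at E7.5, where 2.09% of genes were called, the medians were −0.23 for 11 epithelial genes, 0.32 for 6 adhesion genes, −0.20 for 5 filament genes and 0.28 for 4 factors. Neither edgeR nor DESeq2 called any of them. At an unadjusted p under 0.05, edgeR passed 5, 3, 1 and 1 of these genes and DESeq2 4, 2, 0 and 1. The lowest adjusted p was 0.058, for Cdh2 (0.84).

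With Mesp1 at E7.5, 10 of 11 epithelial genes fell (median −1.46 against 0.01 over all genes, 6.43% called), by 2.17 for Cldn6, 2.04 for Cldn7, 1.69 for the desmosomal Pkp2 and 1.58 for the splicing factor Esrp1. Cdh2 (1.29), Mmp14 (0.89) and Cdh11 (0.78) rose among 6 adhesion genes (median 0.57). Krt18 (−1.55) and Krt8 (−1.30) fell among 5 filament genes (median −0.10), and Foxc2 rose (3.64) among 3 factors (median 0.27). At E6.75, with 1.24% of genes called, Cldn6 (−0.95), Pkp2 (−0.87) and Cldn7 (−0.85) fell among 16 epithelial genes (median −0.57). Cdh11 rose (3.58) among 8 adhesion genes (median 0.26), Krt18 (−1.27) and Krt8 (−1.03) fell among 8 filament genes (median −0.07), and edgeR and DESeq2 called 0 of 4 factors (median 0.16), with 0 at an unadjusted p under 0.05 by either. With E6.75 cells past 0.3% of visceral endoderm markers left out, 2 of 16 epithelial and 1 of 6 filament genes fell, and 2 of 8 adhesion genes rose. The part of visceral endoderm in these differences was not tested.

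With Foxa2 at E7.5, 7 of 11 epithelial genes rose (median 0.70 against 0.00 over all genes, 2.62% called), including Cldn6 (1.92), Esrp1 (1.20), the E-cadherin gene Cdh1 (0.96) and Cldn7 (0.93). Krt8 (1.61) and Krt18 (1.51) rose among 5 filament genes (median 0.20), Cdh11 fell (−1.27) among 6 adhesion genes (median 0.01), and Sox9 rose (1.62) and Foxc2 fell (−1.89) among 4 factors (median 0.03). At E6.75, with 2.39% called, Dsp rose (1.14) among 16 epithelial genes (median −0.12), Krt19 (2.09) and Krt8 (1.76) among 7 filament genes (median 0.20) and Gsc (2.11) among 4 factors (median 0.06), and 0 of 7 adhesion genes was called by edgeR or DESeq2 (median 0.20), with 2 and 1 at an unadjusted p under 0.05. Visceral endoderm also makes keratins and moved with this split. With cells past 0.3% of its markers left out, 35 genes instead of 234 were called, Gsc still among the factors, but 0 of 16 epithelial and 0 of 6 filament genes (9 and 2 at an unadjusted p under 0.05).

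Between the Mesp1 and Foxa2 sides at E7.5, 7 of 9 epithelial genes were lower on the Mesp1 side (median −1.99 against 0.00 over all genes, 4.97% called), including Cldn6 (−3.69), Cldn7 (−3.03), Esrp1 (−2.50) and Epcam (−2.02). Krt18 (−2.24) and Krt8 (−1.98) were lower among 5 filament genes (median −0.21), Cdh11 was higher (2.23) among 6 adhesion genes (median 0.48), and Foxc2 was higher (5.95) among 3 factors (median 0.16). At E6.75, with 2.02% called, Cldn6 (−1.42) and Cldn7 (−0.95) were lower among 13 epithelial genes (median −0.42), and Krt19 (−4.43), Krt8 (−2.24) and Krt18 (−1.99) among 6 filament genes (median −0.99). Cdh11 was higher (2.92) and Sparc lower (−0.66) among 7 adhesion genes (median 0.19), and 0 of 3 factors was called by edgeR or DESeq2 (median 0.01), with 1 and 0 at an unadjusted p under 0.05. Visceral endoderm markers summed to 173 to 1440 CPM on the Foxa2 side (6 libraries) and 25.8 to 46.8 CPM on the Mesp1 side (3 libraries). With cells past 0.3% of these markers left out, 0 of 12 epithelial and 0 of 5 filament genes were called (4 and 2 at an unadjusted p under 0.05; lowest edgeR adjusted p = 0.053 and 0.066).

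In cells with none of the 3 gate genes, with 12.5% of genes called over 10 libraries of both stages, the stage differences were these. Cdh1 fell (−0.51) and Dsp rose (2.07) among 16 epithelial genes (median −0.37 against 0.00 over all genes). Cdh2 (2.16), Mmp2 (1.08), Sparc (0.53) and the integrin gene Itgb1 (0.44) rose among 7 adhesion genes (median 0.53). Krt8 (2.40) and Krt18 (0.75) rose among 5 filament genes (median 0.22), and Sox9 (3.2) and Tcf4 (0.64) among 4 factors (median 0.46).

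The genes whose levels followed each member most closely were found over 51 sums of a library and a class, on the log2(CPM + 10) scale, among 3645 genes. The sums share libraries and differ in depth, and both stages are in them, so the values of Pearson's r describe these sums only. For Snai1 the closest were Gas1 (0.763), Fn1 (0.720), Lef1 (0.718), Pdgfra (0.687) and Greb1 (0.684). For Twist1 they were Laptm4b (0.808), Pcdh19 (0.803), Pdgfra (0.798), Ifitm1 (0.792) and Lef1 (0.769). For Zeb2 they were Tpm4 (0.847), Rspo3 (0.840), Hoxb1 (0.833), Vim (0.830) and Ppic (0.809). For Vim they were Ccnd2 (0.881), Cnn2 (0.83), Uhrf2 (0.822), Hmgn2 (0.821) and Prtg (0.816). For Fn1 they were Ifitm1 (0.902), Pdgfra (0.894), Cdh2 (0.883), Rspo3 (0.883) and Epha4 (0.881).

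Among the members themselves, r ran from 0.376 between Snai1 and Vim to 0.830 between Zeb2 and Vim. Snai1 and Twist1 gave 0.616, Twist1 and Fn1 0.762, and Zeb2 and Fn1 0.780. With Cdh1, r was −0.716 for Snai1, −0.804 for Twist1, −0.688 for Zeb2, −0.564 for Vim and −0.762 for Fn1. With Mesp1, which also defined the classes, it was 0.858 for Snai1, 0.728 for Twist1, 0.685 for Fn1, 0.432 for Zeb2 and 0.221 for Vim. Snai1 lay nearest to Mesp1 and Vim farthest from it in these sums.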

How the data were processed

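Single-cell libraries of mouse embryos at E6.75 (6) and E7.5 (12) were read as deposited. The authors deposited expected counts, 1 column for each cell barcode and 1 row for each gene, without depth normalisation. They corrected observed unique molecular identifiers (UMIs) for collisions, which raises high counts more than low ones, and per the submitters' processing notes used bcl2fastq 2.17.1.14 and BWA 0.6.2-r126. Genome build, annotation, counting program and strand were not given in the sources used here. The files name 23093 features, of which 22997 are nuclear genes, 22 mitochondrial and 74 spike-ins. Depth and tests used nuclear genes.

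Each library filled 96 of 192 barcode columns. Cells with at least 2000 transcripts were kept, 972 in all, and E7.5 replicate 5 had 0. A split compared cells with at least 1 transcript of T, Mesp1 or Foxa2 with cells that had none, after leaving out cells with at least 1% of transcripts from visceral endoderm markers (14 at E6.75, 0 at E7.5) or 0.5% from extraembryonic ectoderm markers (0). No doublet caller was run on these picked or sorted cells. Expected counts were rounded, summed per library and side (at least 3 cells each; 10 per library for stage), and tested with edgeR 4.0.16 in R 4.3.3 (TMM, filterByExpr, quasi-likelihood F test, Benjamini-Hochberg over all genes tested, threshold 0.05). The library was the block in splits, since both sides come from the same library. The interaction tested the change with stage. Fits were tested on simulated data: of 100 genes changed 2-fold, 86 were recovered for stage (10020 genes), 80 for T at E6.75 (9851), 54 for Mesp1 at E6.75 (9961), 91 for Mesp1 at E7.5 (6183), 81 for Foxa2 at E7.5 (6580) and 65 for the T change (8050). In the same order, unchanged genes made up 5.2%, 4.9%, 3.9%, 9.4%, 7.4% and 3.0% of calls. The share was thus above the threshold of 0.05 for Mesp1 and Foxa2 at E7.5, and slightly above it for stage. All simulated libraries shared 1 mean profile, so the use of the library as a block was not tested.

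Alternatives were relative log expression size factors, no filter, DESeq2 1.42.0, observed UMIs, cells with at least 5000 transcripts, cells thinned to 2000 UMIs, 2 transcripts for detection, other exclusions (0.3% or none), at least 5 cells, no replicate block, each library left out, and for stage the E6.75 libraries named with prefix 2 alone. The members and the lists (epithelial, mesenchymal adhesion and matrix, intermediate filaments and lamins, other EMT transcription factors, and cell type markers) were chosen with earlier results of these data known. Genes named are the 5 members, up to 4 called genes per list with the largest log2 fold change, and the 5 genes most correlated with each member among those with a mean of at least 50 CPM (sums of at least 5 cells). Positions come from GENCODE M21 on GRCm38, which may differ from the build of the files, and promoters from RefSeq, matched by symbol for 4 of the 5 genes. A count of 0 was given the limit that 3 counts allow, covering counting error only.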

Additional observations from a re-analysis of the deposited data

Results flagged for a closer look

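Among 65 groups of 4 to 10 libraries, 9 held a member level far from the others by Dixon's test, which marks about 5% of groups by chance. Twist1 in E6.75 replicate 2_12 was at 11.6 CPM in cells without T (next library 5.16) and 10.5 CPM in cells with none of the 3 split genes (next 4.29), and these sums share cells. Twist1 was at 107 CPM in the E7.5 replicate 12 cells with Foxa2 (next 54.2) and at 50.7 CPM in the E7.5 replicate 1 cells with Foxa2 and no Mesp1 (next 12.8). Vim was low in E6.75 replicate 1_10 cells without Foxa2, at 19.4 CPM (next 35.3), and high in E7.5 replicate 1 cells with T alone, at 799 CPM (next 389). Fn1 was low in E6.75 replicate 2_9 cells with none of the 3 genes, at 34.3 CPM (next 50.8). Zeb2 was high in E7.5 replicate 2 cells with none, at 80.0 CPM (next 25.2), and Snai1 in E7.5 replicate 9 cells with T alone, at 156 CPM (next 57.8).

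Some splits differed between stages by the interaction test (E7.5 minus E6.75, edgeR adjusted p under 0.05). For the T split these were Snai1 (−1.41) and Cdh11 (−2.82). For the Mesp1 split they were Esrp1 (−1.50), Cldn6 (−1.20) and Cdh11 (−2.76). For the Foxa2 split they were Cldn7 (0.96), Cdh1 (1.07), Esrp1 (1.09) and Cldn6 (1.70). Between the Mesp1 and Foxa2 sides they were Cldn6 (−2.21), Esrp1 (−2.08), Cldn7 (−2.02) and Epcam (−1.63).

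The barcode columns not in use held member transcripts above the limit that a count of 0 allows. At E6.75 they held 7.0 of Snai1, 5.0 of Vim and 9.0 of Fn1, and at E7.5 4.0 of Snai1, 5.0 of Twist1, 6.0 of Zeb2, 25 of Vim and 75.0 of Fn1. As a share of each gene's transcripts this was 0.377% (Fn1) to 0.924% (Snai1) of these genes at E6.75 and 0.534% (Snai1) to 1.37% (Zeb2) at E7.5. Over all nuclear genes the unused columns held 0.341% and 0.850% of transcripts.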

How the results depend on the processing

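Of 236 member values past the threshold at other settings, 211 kept direction and side of the threshold and 25 lost the call. With 1 library left out the same counts were 210 and 25. The lost calls were those of Snai1 by stage and in the T change, of Fn1 in the T split at E6.75, the Mesp1 and Foxa2 splits and the comparison of the Mesp1 and Foxa2 sides at E6.75, of Snai1 and Twist1 in the Mesp1 split at E6.75, and of Vim between the 2 sides at E6.75. Of values short of the threshold, 21 passed it at another setting and 10 without 1 library. Direction changed only for member values short of the threshold, and the causes were not tested. Depth limits the factors: in cells thinned to 2000 UMIs, Snai1 passed the filter in the Mesp1 split at E6.75 and in no other comparison.

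Numbers of genes called moved as follows. Cells thinned to 2000 UMIs gave 612 for stage (3879 at full depth), 343 for stage in cells with none of the 3 genes (1155), 11 for T at E6.75, 7 for T at E7.5, 1 for Mesp1 at each stage, 7 for Foxa2 at each stage, 11 and 1 for the Mesp1 against the Foxa2 side at E6.75 and E7.5, and 1, 1, 4 and 1 for the changes with stage of the T, Mesp1, Foxa2 and Mesp1-against-Foxa2 comparisons. No filter on low counts gave 556 (351 with it) and 370 (130) for T, 282 (124) and 923 (396) for Mesp1, 432 (234) and 735 (169) for Foxa2 and 322 (164) and 736 (222) for the 2 sides at E6.75 and E7.5, and 184 (37), 110 (28), 246 (96) and 94 (34) for the changes. DESeq2 gave 162 for T, 63 for Mesp1 and 77 for the 2 sides at E6.75, and 14 and 22 for the Mesp1 and 2-sided changes. With no replicate block the counts were 85 and 70 for T at E6.75 and E7.5, 66 for Mesp1 at E6.75, 119 and 54 for Foxa2, and 1, 0, 22 and 0 for the changes. Where the count was 0, edgeR gave 289 (Mesp1) and 378 (Mesp1 against Foxa2) genes at an unadjusted p under 0.05. At least 2 transcripts for detection gave 401 for the 2 sides at E6.75 and 60 for the T change. Visceral endoderm exclusion at 0.3% gave 35 for Foxa2 and 33 for the 2 sides at E6.75, and no exclusion 442 for Foxa2. At least 5 cells on each side gave 104 for Foxa2 at E7.5, 294 for the 2 sides at E6.75 and 35 for the Foxa2 change.

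With 1 library left out, the count was 172 to 350 for T at E6.75 (172 without 2_14), 83 to 149 for T at E7.5 (83 without 4), 138 to 201 for Mesp1 at E6.75 (201 without 2_9), 129 to 266 for Foxa2 at E6.75 (129 without 2_13, 133 without 2_14) and 86 to 198 for Foxa2 at E7.5 (110 without 2, 86 without 7). It was 109 to 294 for the 2 sides at E6.75 (109 without 2_14, 294 without 2_9), 13 to 49 for the Mesp1 change (13 without 2_13, 49 without E7.5 replicate 1), 53 to 122 for the Foxa2 change (53 without 2_13, 56 without 2_9, 59 without E7.5 replicate 1, 60 without 2_14, 62 without E7.5 replicate 3), 19 to 42 for the 2-sided change (19 without 2_13, 22 without 2_9 or E7.5 replicate 2) and 715 to 1178 for stage in cells with none of the 3 genes (715 without E7.5 replicate 3).

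The log2 fold changes that turned were these. Vim with T at E6.75 (0.00) was −0.018 with no filter, −0.023 by DESeq2, −0.0010 in cells with at least 5000 transcripts, −0.031 at 0.3% exclusion, −0.0076 with no replicate block and −0.19 to 0.051 with 1 library left out. Vim with T at E7.5 (0.04) was −0.042 to 0.15 with 1 library left out, and Fn1 (1.03) was −0.39 in thinned cells. Vim with Mesp1 at E7.5 (−0.03) was 0.11 at 2 transcripts, 0.022 with at least 5 cells and −0.14 to 0.18 with 1 library left out. In the T change, Twist1 (0.04) was −0.23 at 2 transcripts, −0.11 at 0.3% exclusion and −0.31 to 0.39 with 1 library left out. Vim (0.05) was −1.08 in thinned cells and −0.051 to 0.24 with 1 library left out, and Fn1 (−0.11) was 0.39 by DESeq2 and −0.34 to 0.25. In the Mesp1 change, Fn1 (−0.37) was 0.12 by DESeq2 and −0.85 to 0.078 with 1 library left out (0.078 without 2_14). In the Foxa2 change, Vim (0.09) was −0.93 in thinned cells, −0.32 at 2 transcripts and −0.070 to 0.29 with 1 library left out, and Fn1 (−0.67) was 0.23 in thinned cells. In the 2-sided change, Zeb2 (−0.78) was −1.24 to 0.12 with 1 library left out, and Fn1 (−0.09) was 0.037 with no filter, 0.85 by DESeq2, 0.85 in thinned cells and −0.56 to 0.40.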
